A study of Mus musculus with 6 samples.

Results

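Macrophages kill with reactive oxygen and have to survive it. The phagocyte NADPH oxidase passes electrons from NADPH to oxygen and makes superoxide. Superoxide dismutases turn superoxide into hydrogen peroxide, which catalase, glutathione peroxidases and peroxiredoxins remove. Glutathione and thioredoxin supply the electrons for this and are recharged with NADPH by their own reductases. The transcription factor Nrf2, encoded by Nfe2l2 and held in check by Keap1, is known to drive many of these antioxidant genes. The genes described here are the 4 oxidase genes Cybb, Cyba, Ncf1 and Ncf4 and 65 antioxidant genes, 69 of 24411 genes in all. Of these, 14 were listed by name, and 55 were taken because their symbol starts with Gsta, Gstm, Gsto, Gstp, Gstt, Gstk, Gstz, Gpx, Prdx or Txn.

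RNA was sequenced from macrophages of C57BL/6 mice, an inbred strain, grown for 7 days in 10% serum and 20 ng/ml M-CSF, the growth factor that turns monocytes into macrophages. LFA1-hi macrophages (3 libraries) came from bone marrow monocytes sorted as LFA1-hi Itgam-hi, and LFA1-lo macrophages (3 libraries) came from monocytes sorted as LFA1-lo Itgam-lo. The names therefore describe the monocyte before culture, and LFA1 and Itgam are surface adhesion molecules. Whether the 3 libraries of a group are separate animals or cultures is not in the labels, and the p-values then reflect just the spread among these samples, possibly technical. The culture medium was refreshed on day 4 and RNA was taken on day 7.

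The libraries held 15191262 to 17614509 summed expected counts. On the CPM scale, which divides counts by library size, 3 counts equal 0.1703 to 0.1975. All 10 macrophage marker genes were detected in every library. They summed to 14402 to 16709 CPM in LFA1-hi and 18556 to 23699 CPM in LFA1-lo libraries. By the threshold given below, 6 were lower and 1 was higher in LFA1-hi, where 15.6% of all tested genes were lower and 16.1% higher. Lyz2 made up most of these sums, with means of 9704 CPM in LFA1-hi and 12918 CPM in LFA1-lo libraries. It was 1 of the 6 but passed narrowly, and its libraries overlapped. LFA1-lo libraries varied more than LFA1-hi libraries: the median coefficient of variation of a tested gene was 7.82% in LFA1-hi and 13.9% in LFA1-lo. LFA1-lo replicate 2 was the library farthest from its group's median for 46.7% of tested genes and 48.1% of tested members. Results are therefore also given without it where it matters. Fewer cells of a type and less RNA per cell cannot be told apart in these bulk samples.

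Levels are given in TPM, which allow for gene length and library size. Differences are log2 fold changes of LFA1-hi minus LFA1-lo from edgeR's quasi-likelihood test on counts, with p-values adjusted by Benjamini-Hochberg over every tested gene. A gene passes at an adjusted p under 0.05. Of the 69 members, 54 passed the filter on low counts, 12 were listed at 0 in all 6 libraries, and 3 (Gsta4, Gstt1 and Gpx2-ps1) had counts too low to test. The 12 at 0 were Gsta1, Gsta2, Gstm3, Gstm6, Gstt4, Gpx2, Gpx5, Gpx6, Gpx8, Prdx6b, Txndc2 and Txndc8.

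Of the 4 oxidase genes, 2 fell in LFA1-hi macrophages and none rose, where 15.6% of all 11692 tested genes fell. Of the 50 tested antioxidant genes, 8 rose and 5 fell, where 16.1% of all tested genes rose. The members called thus made up 27.8% of those tested, against 31.7% of all tested genes. The median log2 fold change was −0.28 over the 4 oxidase genes and 0.05 over the 50 antioxidant genes, beside 0.00 over all tested genes. The counts changed with single libraries, among the members and among all genes. Without LFA1-hi replicate 1, 2 or 3, the antioxidant genes that rose numbered 4, 3 or 4, those that fell 3, 2 or 2, and 1 oxidase gene fell each time, while 19.7%, 19.2% or 20.4% of all genes tested there were called. Without LFA1-lo replicate 1, 5 antioxidant genes rose and 3 fell, and 1 oxidase gene fell, while 23.0% of all genes were called. Without LFA1-lo replicate 2, 12 antioxidant genes rose, 6 fell and 3 oxidase genes fell, while among all genes tested there 21.8% rose and 20.5% fell, 42.3% in all. Without LFA1-lo replicate 3, Gstm1, Prdx3, Txndc12 and Cybb lost the call, while Gpx3, Srxn1, Sod2 and Cyba gained it. In that fit 3510 of 11893 genes were called, against 3705 of 11692 with all libraries. Scaling by library totals left 1 oxidase gene. In CPM the LFA1-hi libraries did not overlap the LFA1-lo libraries for 3 oxidase genes, all lower in LFA1-hi, and for 17 antioxidant genes, 12 of them higher and 5 lower. Over all tested genes, 24.8% were higher without overlap, 22.9% lower, and 47.8% either.

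**Figure D1:**
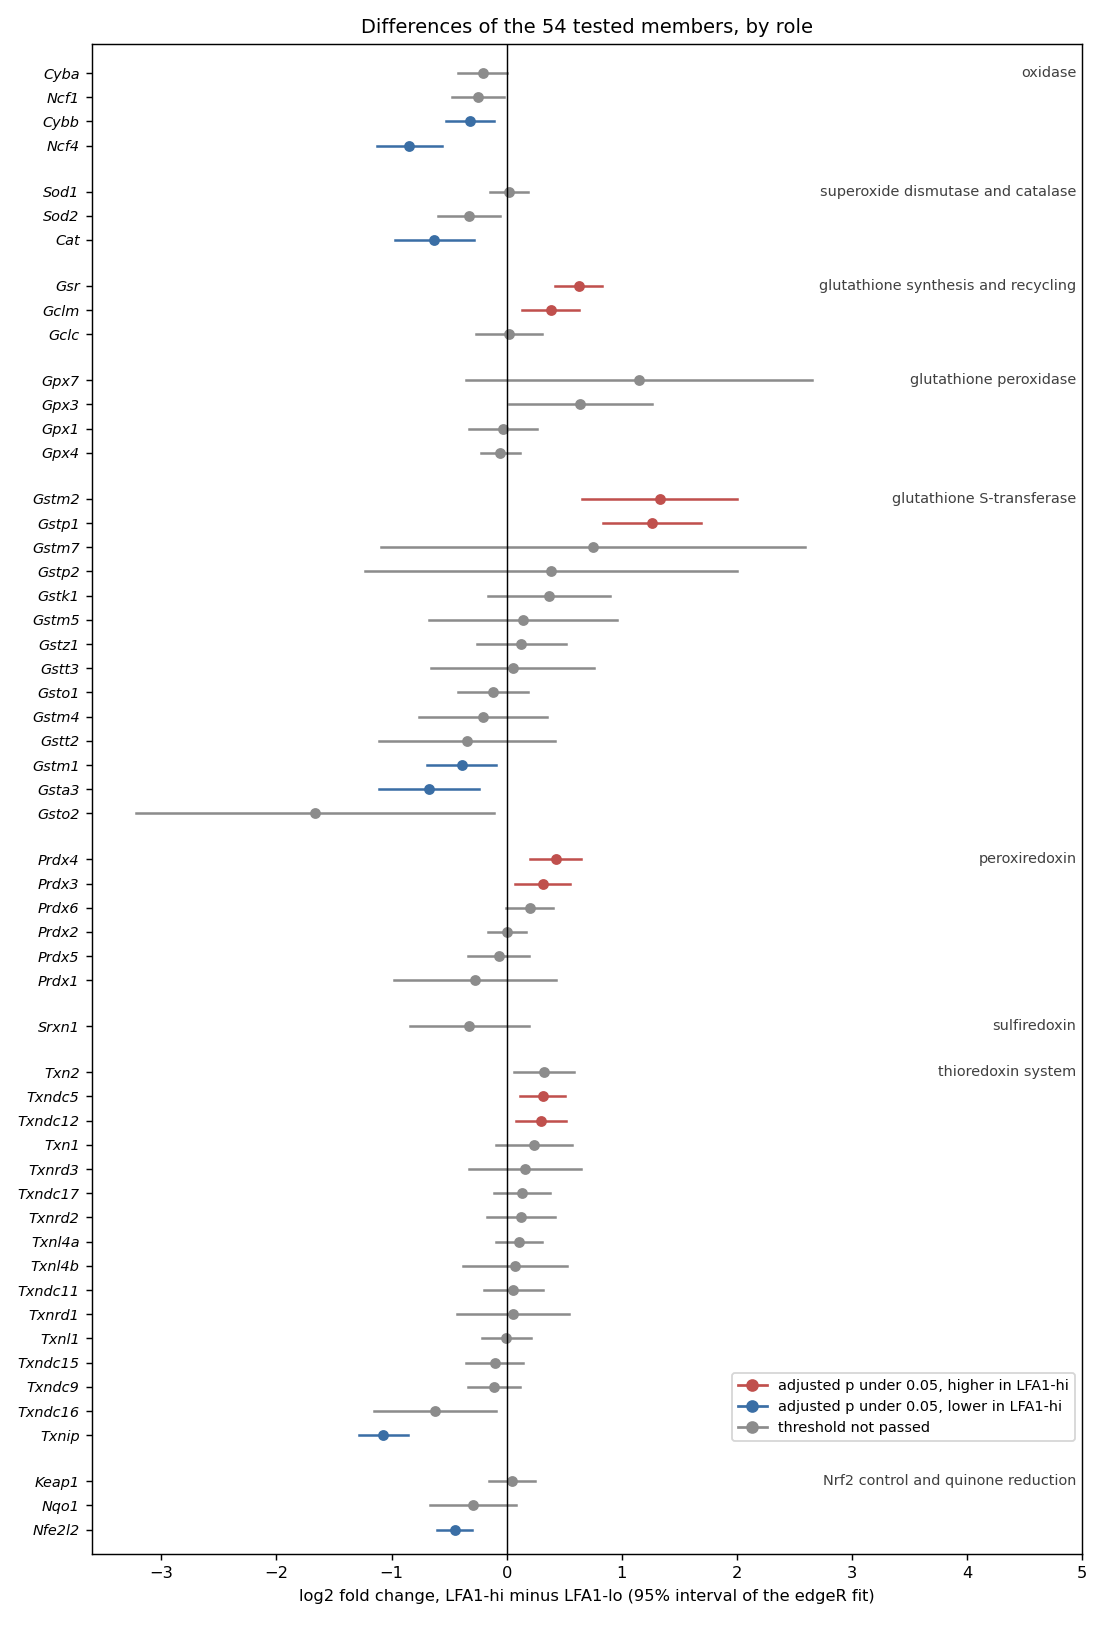
Log2 fold change of LFA1-hi minus LFA1-lo (points) with the 95% interval of the edgeR fit (lines) for the 54 tested members, grouped by role. Red and blue mark genes past an adjusted p of 0.05, grey the other 39. Most points lie within 1 log2 unit of 0, and Txnip, Gstm2 and Gstp1 lie beyond it among the coloured genes.

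The oxidase core is a membrane pair. Cybb (GRCm38.p6 chromosome X, 9435252 to 9487766) encodes the catalytic subunit that carries the electrons. It had 333, 341 and 339 TPM in LFA1-hi replicates 1, 2 and 3, against 470.4, 363 and 453 TPM in LFA1-lo replicates 1, 2 and 3. Every LFA1-hi library lay below every LFA1-lo library. Cybb fell by 0.32 on the log2 scale (SE 0.09, edgeR adjusted p = 0.027), and leaving out LFA1-lo replicate 2 gave −0.41 (adjusted p = 6.54e-05). The call was lost when LFA1-lo replicate 1, LFA1-lo replicate 3 or any of the LFA1-hi libraries was left out, and with library totals as the scale (adjusted p up to 0.117 over all alternatives).

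Cyba (chromosome 8, 122424771 to 122432940) encodes the small partner that stabilises the Cybb protein. It had 1290.2, 1248 and 1300.04 TPM in LFA1-hi libraries, against 1458, 1647 and 1357 TPM in LFA1-lo libraries. Its libraries did not overlap either, but the difference did not pass (log2 fold change −0.21, SE 0.10, edgeR adjusted p = 0.124). Of the 19 alternatives only leaving out LFA1-lo replicate 3 gave a call (adjusted p = 0.0489). Cyba was the most abundant of the 4, and the TPM ratio of Cyba to Cybb was 3.87, 3.66 and 3.83 in LFA1-hi libraries and 3.10, 4.54 and 2.99 in LFA1-lo libraries. The outlying ratio belonged to LFA1-lo replicate 2, where Cyba was highest and Cybb lowest of its group.

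The other subunits are cytosolic and join the membrane pair on activation. Ncf4 (chromosome 15, 78244164 to 78262582) encodes p40phox, which binds a phosphoinositide of the phagosome membrane. It had 99.7, 107 and 110.0 TPM in LFA1-hi libraries, against 187, 224 and 164 TPM in LFA1-lo libraries. The groups were well apart, and Ncf4 fell by 0.85 on the log2 scale, or 1.80-fold (SE 0.13, edgeR adjusted p = 0.00116). It passed under all 19 alternatives, with log2 fold changes of −0.95 to −0.69. Ncf1 (chromosome 5, 134220053 to 134229628) encodes p47phox, the organiser that is phosphorylated when the oxidase is switched on. It had 200.1, 184 and 184 TPM in LFA1-hi libraries, against 252, 189 and 244 TPM in LFA1-lo libraries. The groups overlapped, because LFA1-lo replicate 2 lay below the highest LFA1-hi library. Ncf1 did not pass (−0.25, SE 0.10, adjusted p = 0.0887) except without that library (−0.35, adjusted p = 0.000514). The TPM ratio of Ncf1 to Ncf4 was 1.67 to 2.01 in LFA1-hi and 0.842 to 1.49 in LFA1-lo libraries.

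**Figure D2:**
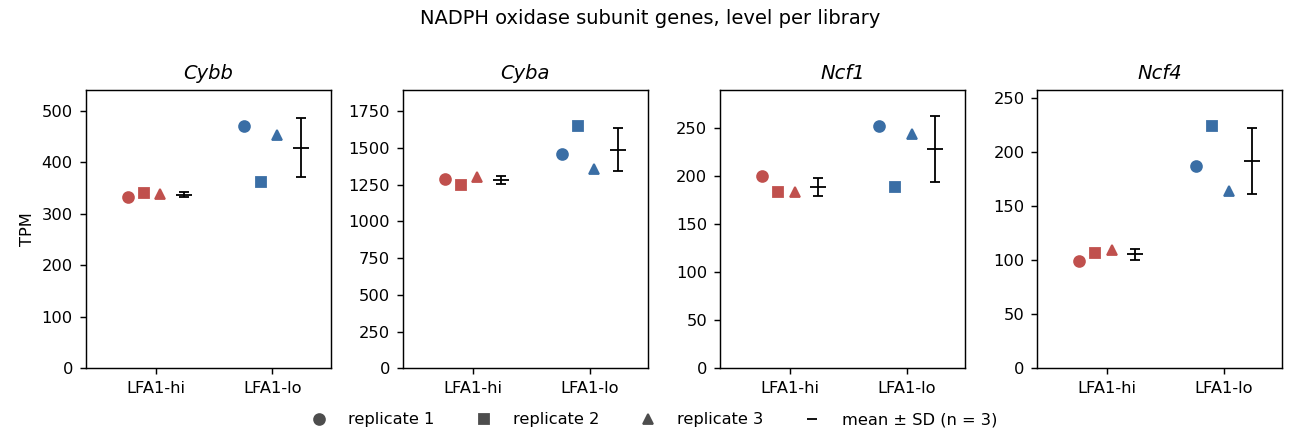
TPM of the 4 oxidase genes in each of the 6 libraries (symbols by replicate), with the mean and SD of each group of 3. LFA1-hi libraries lie below all LFA1-lo libraries for Cybb, Cyba and Ncf4, while for Ncf1 LFA1-lo replicate 2 reaches into the LFA1-hi range.

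Among 11 tested partners of the oxidase and other oxidases, 2 fell and none rose (median log2 fold change −0.14). Among all tested genes, 15.6% fell and 16.1% rose. Rac2, the small GTPase that completes the complex in phagocytes, had a log2 fold change of −0.14 (edgeR adjusted p = 0.226). Rac1, on the same list, had 0.01 (adjusted p = 0.948). The gene listed as BC017643, which RefSeq names Cybc1 and whose product is needed for stable Cybb protein, had −0.21 (adjusted p = 0.118). Prkcd, a kinase that phosphorylates p47phox, fell to 129, 128 and 124 TPM in LFA1-hi, against 208, 222 and 181 TPM in LFA1-lo libraries (−0.66, SE 0.09, adjusted p = 0.000921). The other gene that fell was Nox1, an oxidase mainly of epithelia, which was low throughout (0.04 to 0.27 TPM in LFA1-hi and 0.92 to 1.5 TPM in LFA1-lo libraries) and was named after its values were seen. Rac1, Rac2 and BC017643 were likewise named after their values were seen. Among the genes of the complex described here, Cybb and Ncf4 passed, while Cyba, Ncf1 and Rac2 had negative values that did not pass. Rac1 was level.

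Neutrophils and their precursors also express the oxidase, and several of their markers were lower in LFA1-hi. Of 15 granulocyte genes in the files, 7 were tested and 5 of these fell in LFA1-hi. Among all tested genes, 15.6% fell and 16.1% rose. The 15 summed to 107 to 133 CPM in LFA1-hi and 213 to 300.01 CPM in LFA1-lo libraries. Much of this was Mmp8, with means of 94.3 CPM in LFA1-hi and 102 CPM in LFA1-lo libraries. Mmp8 did not pass (log2 fold change −0.12, edgeR adjusted p = 0.837), nor did S100a8 (−0.86, adjusted p = 0.149). S100a9, an abundant granulocyte protein, had 3.49, 2.30 and 3.88 TPM in LFA1-hi and 20.4, 66.25 and 80.3 TPM in LFA1-lo libraries. Mpo, Elane, Prtn3 and Ctsg, which define granulocyte precursors, were between 0 and 1.38 TPM in all libraries. LFA1-lo replicate 1, with the lowest S100a9 of its group, had the highest Cybb and Ncf1. Cyba and Ncf4 were highest in LFA1-lo replicate 2, as was the granulocyte protease gene Mmp9, with 1.02, 0.20 and 0.46 TPM in LFA1-hi and 11.9, 92.9 and 10.04 TPM in LFA1-lo libraries. Csf3r, Ngp and Ltf, the other granulocyte genes that fell, peaked in other libraries than Mmp9. Csf3r was highest in LFA1-lo replicate 1 (30.25, 26.2 and 24.65 TPM in LFA1-lo replicates 1, 2 and 3). Ngp (7.43, 25.5 and 26.35 TPM) and Ltf (1.52, 3.01 and 4.06 TPM) were highest in LFA1-lo replicate 3, where Cyba and Ncf4 were lowest. The part of granulocyte RNA in the oxidase differences was not tested. Erythroid genes, which matter because red cell precursors are rich in catalase and Prdx2, summed to 0.38 to 0.56 CPM in LFA1-hi and 0.57 to 1.47 CPM in LFA1-lo libraries, and none was high enough to test. Of the other lists, 1 of 4 tested eosinophil, mast cell and basophil genes rose and 2 fell, and none of 2 dendritic cell, 1 lymphocyte and 3 stromal or endothelial genes passed. Their sums in CPM were 10.8 to 12.1 in LFA1-hi and 17.85 to 41.55 in LFA1-lo libraries for the eosinophil, mast cell and basophil list (Epx, Cpa3, Fcer1a and Ms4a2 at 0), and 109 to 277 in LFA1-hi and 47.1 to 232 in LFA1-lo libraries for the dendritic cell list (Flt3 and Ccr7 at 0). They were 2.30 to 3.02 in LFA1-hi and 1.01 to 3.70 in LFA1-lo libraries for the lymphocyte list, and 22.6 to 26.7 in LFA1-hi and 13.9 to 19.9 in LFA1-lo libraries for the stromal and endothelial list. Their part in the results was not tested.

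Of the enzymes that act on superoxide and peroxide directly, catalase fell. Cat (chromosome 2, 103453904 to 103485153) encodes the peroxisomal enzyme that splits hydrogen peroxide into water and oxygen. It had 326, 316 and 309 TPM in LFA1-hi libraries, against 627, 373 and 496 TPM in LFA1-lo libraries. The LFA1-hi libraries lay close together and below all LFA1-lo libraries, which were spread widely. Cat fell by 0.63 on the log2 scale, or 1.54-fold (SE 0.15, edgeR adjusted p = 0.0145). The call was lost without LFA1-hi replicate 2 or 3 (adjusted p up to 0.0648), and without LFA1-lo replicate 2 the value was −0.78 (adjusted p = 9.06e-06).

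Sod1, the cytosolic copper-zinc dismutase, was abundant and nearly level, with 919, 861 and 859 TPM in LFA1-hi and 889, 873 and 860.01 TPM in LFA1-lo libraries. The 95% interval of its fold ran from 0.902 to 1.14. Sod2, the mitochondrial manganese dismutase, had 50.8, 47.2 and 42.9 TPM in LFA1-hi and 67.6, 61.9 and 50.1 TPM in LFA1-lo libraries. LFA1-lo replicate 3 lay just inside the LFA1-hi range, and Sod2 did not pass (−0.33, SE 0.12, edgeR adjusted p = 0.0659). It passed with DESeq2, with the replicate number as a block and without LFA1-lo replicate 3.

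Glutathione is made by a ligase of a catalytic subunit, Gclc, and a modifier subunit, Gclm, and its oxidised form is recycled by glutathione reductase, Gsr. Gsr (chromosome 8, 33653238 to 33698162) rose to 134, 138 and 129 TPM in LFA1-hi, against 100.2, 83.9 and 80.01 TPM in LFA1-lo libraries. The groups did not overlap, Gsr was 1.54-fold higher (0.62 on the log2 scale, SE 0.09, edgeR adjusted p = 0.00101), and it passed under all 19 alternatives. Gclm had 205.2, 205.2 and 203 TPM in LFA1-hi libraries, against 189.8, 151 and 137 TPM in LFA1-lo libraries. It rose by 1.30-fold (log2 fold change 0.38, SE 0.11, adjusted p = 0.026), though not without any LFA1-hi library (adjusted p up to 0.0953). Gclc did not follow, with 47.2, 50.9 and 50.9 TPM in LFA1-hi and 52.5, 56.0 and 40.3 TPM in LFA1-lo libraries (0.02, adjusted p = 0.919, 95% interval of the fold 0.833 to 1.24). The TPM ratio of Gclm to Gclc was accordingly 3.99 to 4.35 in LFA1-hi and 2.70 to 3.61 in LFA1-lo libraries.

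Glutathione peroxidases reduce peroxides with glutathione, and none of the 4 tested passed. Gpx1, the cytosolic enzyme, had 428, 393 and 448 TPM in LFA1-hi and 415, 516 and 381 TPM in LFA1-lo libraries (log2 fold change −0.03, edgeR adjusted p = 0.867). Gpx4, which reduces lipid peroxides in membranes and protects from ferroptosis, had 433, 407 and 423 TPM in LFA1-hi and 448, 420.1 and 461 TPM in LFA1-lo libraries, with an interval of the fold of 0.856 to 1.08. These were the abundant members of the family. Gpx3, a secreted form, had 15.2, 15.95 and 16.8 TPM in LFA1-hi and 9.78, 6.18 and 15.3 TPM in LFA1-lo libraries. LFA1-lo replicate 3 reached the LFA1-hi range. Gpx3 did not pass (0.64, adjusted p = 0.109) except without LFA1-lo replicate 3 (1.02, adjusted p = 0.00914). Gpx7, an enzyme of the endoplasmic reticulum, stayed at or under 2.37 TPM with a wide interval.

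Glutathione S-transferases couple glutathione to reactive compounds, and of the 14 tested 2 rose and 2 fell (28.6% called, beside 31.7% of all tested genes). Gstp1 (chromosome 19, 4035411 to 4037912), the pi class enzyme, had 78.2, 102.9 and 95.2 TPM in LFA1-hi libraries, against 40.6, 27.35 and 48.1 TPM in LFA1-lo libraries. It rose by 2.40-fold (log2 fold change 1.26, SE 0.19, edgeR adjusted p = 0.00123). Gstm2 (chromosome 3, 107981702 to 107986420), of the mu class, had 24.7, 27.85 and 23.15 TPM in LFA1-hi libraries, against 10.97, 5.24 and 14.3 TPM in LFA1-lo libraries, a rise of 2.51-fold (1.33, SE 0.30, adjusted p = 0.00918). For both genes the groups did not overlap and the call held under all 19 alternatives. With Txnip they are the 3 members past the threshold that differed by at least 2-fold, as 9.13% of all tested genes did.

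Gstm1, the most abundant mu class transferase here, was at 254, 250.7 and 259.7 TPM in LFA1-hi libraries, against 403, 258 and 359 TPM in LFA1-lo libraries. LFA1-lo replicate 2 lay within the LFA1-hi range. Gstm1 passed narrowly (−0.39, SE 0.13, edgeR adjusted p = 0.0495), and 12 of the 19 alternatives lost the call, while leaving out LFA1-lo replicate 2 gave −0.54 (adjusted p = 2.2e-05). Gsta3, of the alpha class, had 20.1, 17.0 and 16.65 TPM in LFA1-hi libraries, against 38.3, 22.4 and 26.8 TPM in LFA1-lo libraries. It fell by 0.68 on the log2 scale (SE 0.19, adjusted p = 0.025), though not when LFA1-lo replicate 1 or any of the LFA1-hi libraries was left out. Reads can be split among close copies, so single Gstm and Gstp genes are uncertain: the Gstm1, Gstm2, Gstm5, Gstp1 and Gstp2 counts were not whole. The other 10 tested transferases did not pass. Among them Gsto1, an omega class enzyme at 125, 129 and 129 TPM in LFA1-hi and 137, 111 and 174 TPM in LFA1-lo libraries, had a log2 fold change of −0.12. Mgst1, a membrane-bound transferase that is no member and was named after its values were seen, was at 175 to 179 TPM in LFA1-hi and 128 to 236 TPM in LFA1-lo libraries (−0.09, adjusted p = 0.734).

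**Figure D3:**
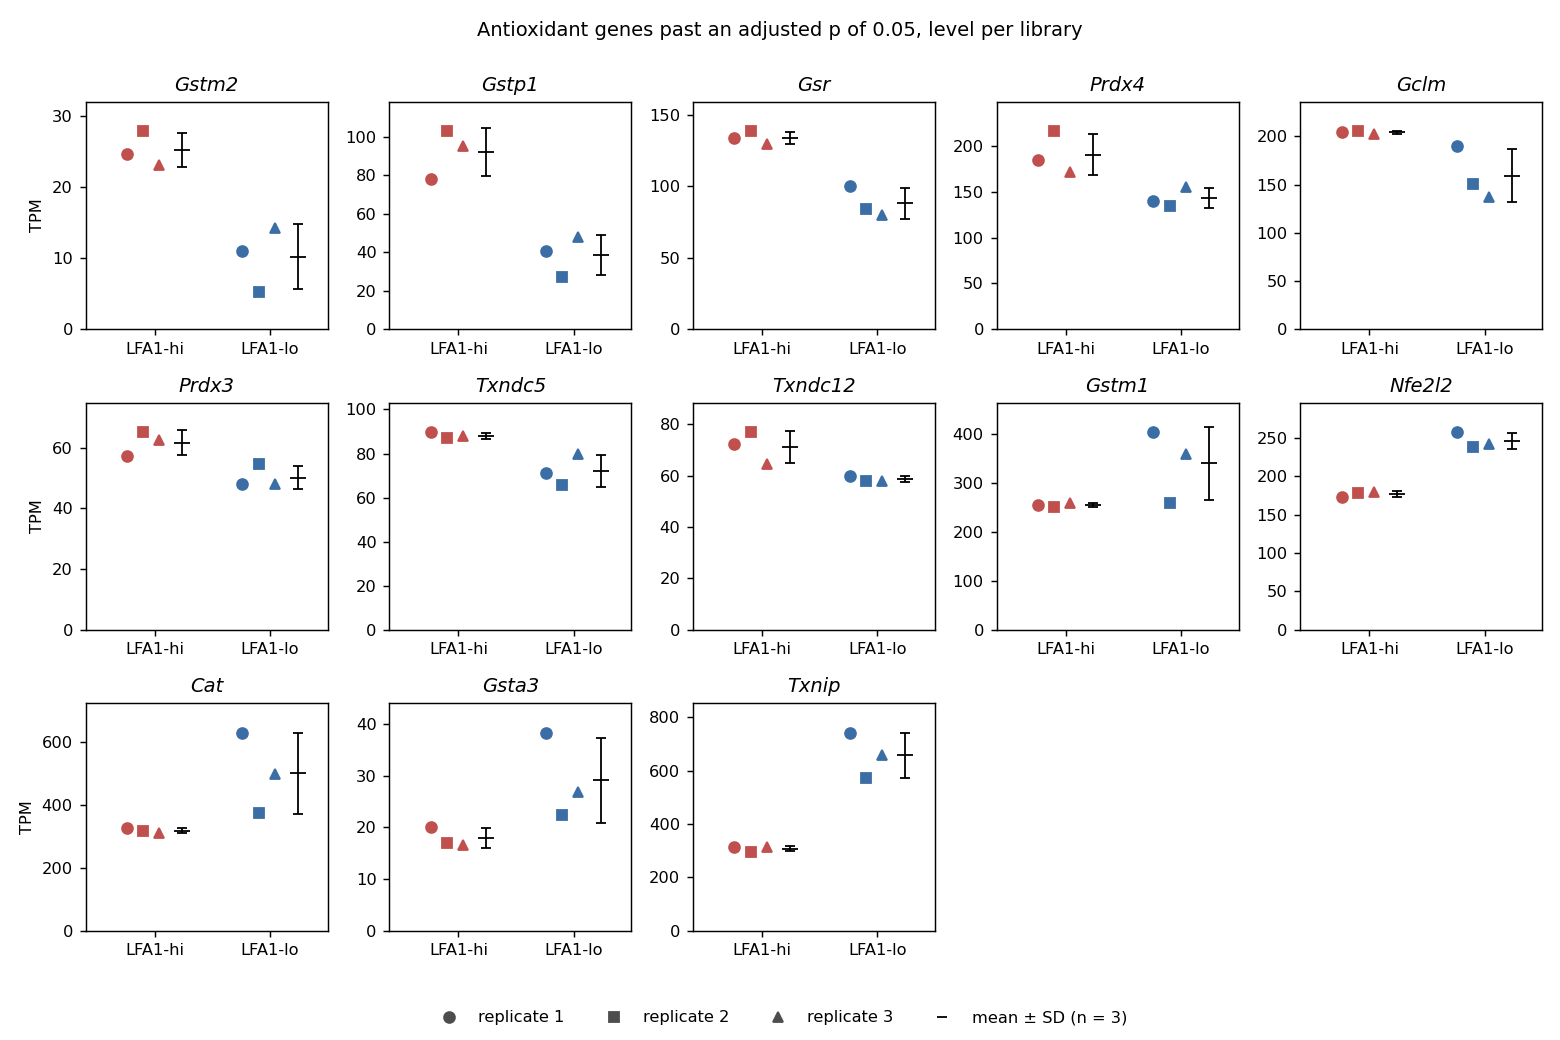
TPM in each library for the 13 antioxidant genes past an adjusted p of 0.05, ordered from the highest to the lowest log2 fold change, with the mean and SD of each group of 3. The groups are apart for all but Gstm1, where LFA1-lo replicate 2 sits at the LFA1-hi level.

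Peroxiredoxins remove peroxide through a reactive cysteine and are recharged by thioredoxin. Prdx4, the form of the endoplasmic reticulum, had 185, 216 and 172 TPM in LFA1-hi libraries, against 141, 135 and 156 TPM in LFA1-lo libraries. It rose by 1.34-fold (log2 fold change 0.42, SE 0.10, edgeR adjusted p = 0.00987). The call was lost in 1 alternative, without LFA1-hi replicate 2 (adjusted p = 0.0516). Prdx3, the mitochondrial form, had 57.2, 65.2 and 62.7 TPM in LFA1-hi libraries, against 48.1, 54.5 and 48.0 TPM in LFA1-lo libraries. The groups did not overlap, but the rise was small and close to the threshold (0.31, SE 0.11, adjusted p = 0.0486), and 8 of 19 alternatives lost it.

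Prdx2, a cytosolic form, had the log2 fold change nearest to 0 of the tested members, with 307, 299.8 and 308 TPM in LFA1-hi and 314, 298.5 and 312 TPM in LFA1-lo libraries and an interval of the fold of 0.894 to 1.12. Prdx5 and Prdx6 did not pass, with log2 fold changes of −0.07 and 0.20. Prdx6 passed without LFA1-lo replicate 2 and with library totals as the scale. Prdx1, another cytosolic form, was by far the most abundant member, with 75.2% to 81.4% of all peroxiredoxin TPM in LFA1-hi and 75.3% to 88.1% in LFA1-lo libraries. Its values were 2888, 3625 and 3857 TPM in LFA1-hi and 3761, 6165 and 2687 TPM in LFA1-lo libraries. The LFA1-lo libraries lay on both sides of the LFA1-hi libraries, and Prdx1 did not pass (−0.27, SE 0.30, adjusted p = 0.526). Srxn1, sulfiredoxin, which restores overoxidised peroxiredoxins, had 139, 153 and 149.8 TPM in LFA1-hi and 189, 243 and 127 TPM in LFA1-lo libraries (−0.32, adjusted p = 0.307). Leaving out LFA1-lo replicate 3 gave a fall that passed (−0.54, adjusted p = 0.00949).

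The thioredoxin system held the change with the lowest adjusted p of the members. Txnip (chromosome 3, 96557957 to 96561857) encodes a protein that binds and inhibits thioredoxin and also curbs glucose uptake. It had 312, 295 and 313 TPM in LFA1-hi libraries, against 741, 572 and 658 TPM in LFA1-lo libraries. Txnip fell by 1.07 on the log2 scale, or 2.10-fold (SE 0.09, edgeR adjusted p = 7.65e-05), and passed under all 19 alternatives, with values of −1.15 to −0.99. Thioredoxin itself, Txn1, had 523, 557 and 521 TPM in LFA1-hi and 412, 565 and 389 TPM in LFA1-lo libraries and did not pass (0.24, adjusted p = 0.248), except without LFA1-lo replicate 2 (0.45, adjusted p = 4.79e-05). The TPM ratio of Txnip to Txn1 was 0.530 to 0.600 in LFA1-hi and 1.01 to 1.80 in LFA1-lo libraries.

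Txnip is known to be switched on by sugar through the factor MondoA, encoded by Mlxip, which binds a pair of E-box-like elements. The RefSeq promoter of Txnip (GRCm38.p6, chr3:96557847-96557913, plus strand) holds such a pair before the start, shown because Txnip stands out among the members. The stretch touches an annotated exon of Gm15441, which is not a protein-coding gene. Capitals mark CACGNG, 5 bases of any kind and CACGNG again.
Txnip: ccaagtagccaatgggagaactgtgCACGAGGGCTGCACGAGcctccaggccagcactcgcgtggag
Searched on both strands, this pattern was in 16 of 32851 RefSeq windows of 250 bases before to 50 bases after a start (0.0487%), and in no other member's window. It was in the windows of 9 tested genes, of which Txnip and Nfkb2 fell and A430005L14Rik and Rbbp4 rose. Among all tested genes, 15.6% fell and 16.1% rose. Mlxip had 18.45, 18.8 and 20.8 TPM in LFA1-hi libraries, against 37.1, 33.75 and 29.5 TPM in LFA1-lo libraries, and fell (−0.77, SE 0.10, edgeR adjusted p = 0.000464). Arrdc4, another gene that MondoA is known to drive, had 13.5, 15.2 and 17.3 TPM in LFA1-hi libraries, against 18.2, 24.0 and 20.6 TPM in LFA1-lo libraries, and fell as well (−0.74, SE 0.14, adjusted p = 0.00409). Its means were 15.3 and 20.9 TPM in LFA1-hi and LFA1-lo libraries, and 17.2 and 28.8 CPM. The Arrdc4 difference was thus smaller in TPM, which allow for gene length, than in the counts that were tested. Arrdc4 was not among the 9 tested genes whose windows held such a pair. Mlx, the partner of MondoA, did not pass (−0.01, adjusted p = 0.959). Mlxip, Mlx and Arrdc4 were chosen after the values of Txnip were seen, and the pair was searched after its promoter was read. Whether MondoA had a part in the fall of Txnip was not tested.

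The reductases that recharge thioredoxin did not pass. Txnrd1, the cytosolic one, had 229, 237 and 234 TPM in LFA1-hi and 239, 288 and 156 TPM in LFA1-lo libraries (log2 fold change 0.05, edgeR adjusted p = 0.87). Txnrd2, of mitochondria, and Txnrd3, best known from testis, were lower, with means of 20.1 TPM in LFA1-hi and 18.8 TPM in LFA1-lo libraries for Txnrd2, and 4.55 TPM in LFA1-hi and 4.16 TPM in LFA1-lo libraries for Txnrd3. The mitochondrial thioredoxin gene Txn2 had 133, 127 and 120.01 TPM in LFA1-hi libraries, against 93.6, 118 and 95.9 TPM in LFA1-lo libraries. It did not overlap between the groups but missed the threshold (0.32, SE 0.12, adjusted p = 0.0621), and it passed without a filter, with library totals and without LFA1-lo replicate 2.

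Genes named for a thioredoxin domain include folding enzymes of the endoplasmic reticulum, and 2 of these rose. Txndc5, a disulphide isomerase, had 89.7, 86.9 and 87.8 TPM in LFA1-hi libraries, against 71.05, 65.7 and 79.9 TPM in LFA1-lo libraries (log2 fold change 0.31, SE 0.09, edgeR adjusted p = 0.0239). Txndc12, a small thioredoxin of the same compartment, had 72.3, 76.9 and 64.4 TPM in LFA1-hi libraries, against 60.05, 57.9 and 58.1 TPM in LFA1-lo libraries (0.30, SE 0.10, adjusted p = 0.0428). The rises were 1.24-fold for Txndc5, lost in 4 of the 19 alternatives, and 1.23-fold for Txndc12, lost in 7. Txndc16, at 14.7, 15.05 and 13.4 TPM in LFA1-hi and 25.2, 13.75 and 28.8 TPM in LFA1-lo libraries, did not pass (−0.62, adjusted p = 0.0734), except with DESeq2 and without LFA1-lo replicate 2 (−0.87, adjusted p = 6.55e-06). Txndc17, a cytosolic thioredoxin-like protein, passed in that same fit alone (0.24, adjusted p = 0.0358). Txnl1, a thioredoxin-like protein of the proteasome, and Txnl4a, which despite its name is a spliceosome protein, were level, with intervals of the fold of 0.860 to 1.16 and 0.938 to 1.24. The remaining members of the group, Txndc9, Txndc11, Txndc15 and Txnl4b, had log2 fold changes between −0.11 and 0.07.

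Nfe2l2 (chromosome 2, 75675513 to 75704663), which encodes Nrf2, had 173, 178 and 179.7 TPM in LFA1-hi libraries, against 257, 238 and 241 TPM in LFA1-lo libraries. All LFA1-hi libraries lay below all LFA1-lo libraries. It fell by 0.45 on the log2 scale (SE 0.07, edgeR adjusted p = 0.00123) under each of the 19 alternatives. Keap1, the adaptor that marks Nrf2 for degradation, was level, with 40.4, 37.0 and 37.4 TPM in LFA1-hi and 36.8, 35.2 and 40.5 TPM in LFA1-lo libraries (0.05, adjusted p = 0.734). Nqo1, a quinone reductase often used as a readout of Nrf2, had 12.9, 19.1 and 14.0 TPM in LFA1-hi and 19.3, 17.6 and 20.0 TPM in LFA1-lo libraries. Those groups overlapped, and Nqo1 did not pass (−0.29, adjusted p = 0.215).

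Nrf2 with a small Maf protein binds the antioxidant response element, whose core is TGACNNNGC. Searched on both strands of the RefSeq windows, the core was in 12 of 76 windows of the 59 members that had one (15.8%), beside 4071 of all 32851 windows (12.4%). Printed here are stretches upstream of the start in the members that passed and hold the core (Gclm, Nfe2l2, Gsta3 and Txndc5) and in Prdx1 and Txnrd1, abundant members that differed widely between LFA1-lo libraries. For Txnrd1 and Txndc5 this start and the printed stretch lie inside the RefSeq span of the gene. For Gclm and Gsta3 the start lies just inside that span and the stretch outside it. The Nfe2l2 and Txndc5 stretches touch annotated exons of E030042O20Rik and Gm31834, which are not protein-coding genes. Capitals mark the core, or its reverse complement where it lies on the other strand.
Gclm (chr3:122245398-122245456, plus strand): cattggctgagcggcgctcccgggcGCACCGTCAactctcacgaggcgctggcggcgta
Nfe2l2 (chr2:75704870-75704913, minus strand): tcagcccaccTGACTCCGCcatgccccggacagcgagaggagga
Gsta3 (chr1:21240439-21240497, plus strand): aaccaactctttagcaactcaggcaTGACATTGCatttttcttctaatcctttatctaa
Txndc5 (chr13:38528019-38528077, minus strand): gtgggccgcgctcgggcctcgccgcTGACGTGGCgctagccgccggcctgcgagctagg
Prdx1 (chr4:116685441-116685499, plus strand): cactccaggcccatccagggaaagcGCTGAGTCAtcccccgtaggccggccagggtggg
Txnrd1 (chr10:82859089-82859147, plus strand): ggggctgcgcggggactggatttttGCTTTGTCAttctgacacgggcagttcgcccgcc
The core in Prdx1 contains the AP-1 motif TGANTCA, which was in 6 of the 76 windows of members (7.89%) and in 7.81% of all windows. A core was found in genes that rose (Gclm and Txndc5), in genes that fell (Nfe2l2 and Gsta3) and in genes that did not pass. A match describes these letters only. In all 5 motifs were searched, chosen with values and sequences known. The E-box CACGTG and the core of PU.1 sites, PU.1 being a factor of myeloid cells, were in 4 and 3 of the 76 windows of members, beside 7.15% and 3.20% of all windows.

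Of 20 tested Nrf2 targets outside the members, 2 rose and 5 fell (median log2 fold change −0.08). For this list and the next, the shares of all tested genes were 16.1% higher and 15.6% lower. Hmox1, heme oxygenase 1, rose to 2163, 1884 and 1929.8 TPM in LFA1-hi, against 1058, 1151 and 779 TPM in LFA1-lo libraries (1.02, SE 0.15, edgeR adjusted p = 0.0014). Osgin1, an oxidative stress response gene (−0.88), Ephx1, an epoxide hydrolase (−0.64, adjusted p = 0.00757), and Blvrb, which reduces biliverdin (−0.50), fell. Ftl1 and Fth1, the ferritin chains, did not pass. Of 18 partners and regulators of Nrf2, 1 rose and 4 fell (median −0.08). Bach1, a repressor that competes with Nrf2 for the element and is known to silence Hmox1, fell to 40.35, 38.2 and 40.9 TPM in LFA1-hi, against 64.1, 58.9 and 72.4 TPM in LFA1-lo libraries (−0.68, SE 0.09, adjusted p = 0.000589). Sesn1, a sestrin (−0.96), and Btrc, a ubiquitin ligase adaptor (−0.47, but adjusted p = 0.0529 with edgeR without LFA1-lo replicate 2), fell, as did Sqstm1 (−0.34), whose product p62 sequesters Keap1 and which was named after its values were seen. Park7, or DJ-1, which protects against oxidants, rose (0.57, SE 0.08, adjusted p = 0.00108).

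Among 24 other glutathione genes 4 rose and 3 fell (median 0.22). For each list in this paragraph, the shares of all tested genes were 16.1% higher and 15.6% lower. Lap3, a peptidase that takes part in glutathione breakdown (0.52, edgeR adjusted p = 0.00355), and Glrx, glutaredoxin, which removes glutathione from proteins (0.47, adjusted p = 0.0208), rose. Abcc1, which exports glutathione conjugates (−0.41), and Ggt5, a membrane peptidase that cleaves glutathione and its conjugates (−1.26), fell. Glutathione synthetase, Gss, was chosen after its values were seen and did not pass (0.24, adjusted p = 0.331). Of 17 genes that supply NADPH, 3 rose and 3 fell (median −0.02). Mthfd1, of the folate cycle (1.05, adjusted p = 0.000472), and Me2, a mitochondrial malic enzyme that mainly uses NAD (0.98, adjusted p = 0.000345), rose, while Nadk, the kinase that makes NADP from NAD (−0.67, adjusted p = 0.000283), and Aldh1l1, another folate enzyme (−0.69), fell. G6pdx and Pgd, which make NADPH in the pentose phosphate pathway, did not pass (−0.13 and −0.05). Of 21 other redox repair genes 8 rose and 1 fell (median 0.21). Tmx2, a membrane thioredoxin-like protein (0.73), and Msrb2, which repairs oxidised methionine in mitochondria (0.72), rose, and the copper chaperone gene Atox1 fell (−0.59, SE 0.11, adjusted p = 0.00375). Some genes stand in more than 1 of these lists.

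**Figure D4:**
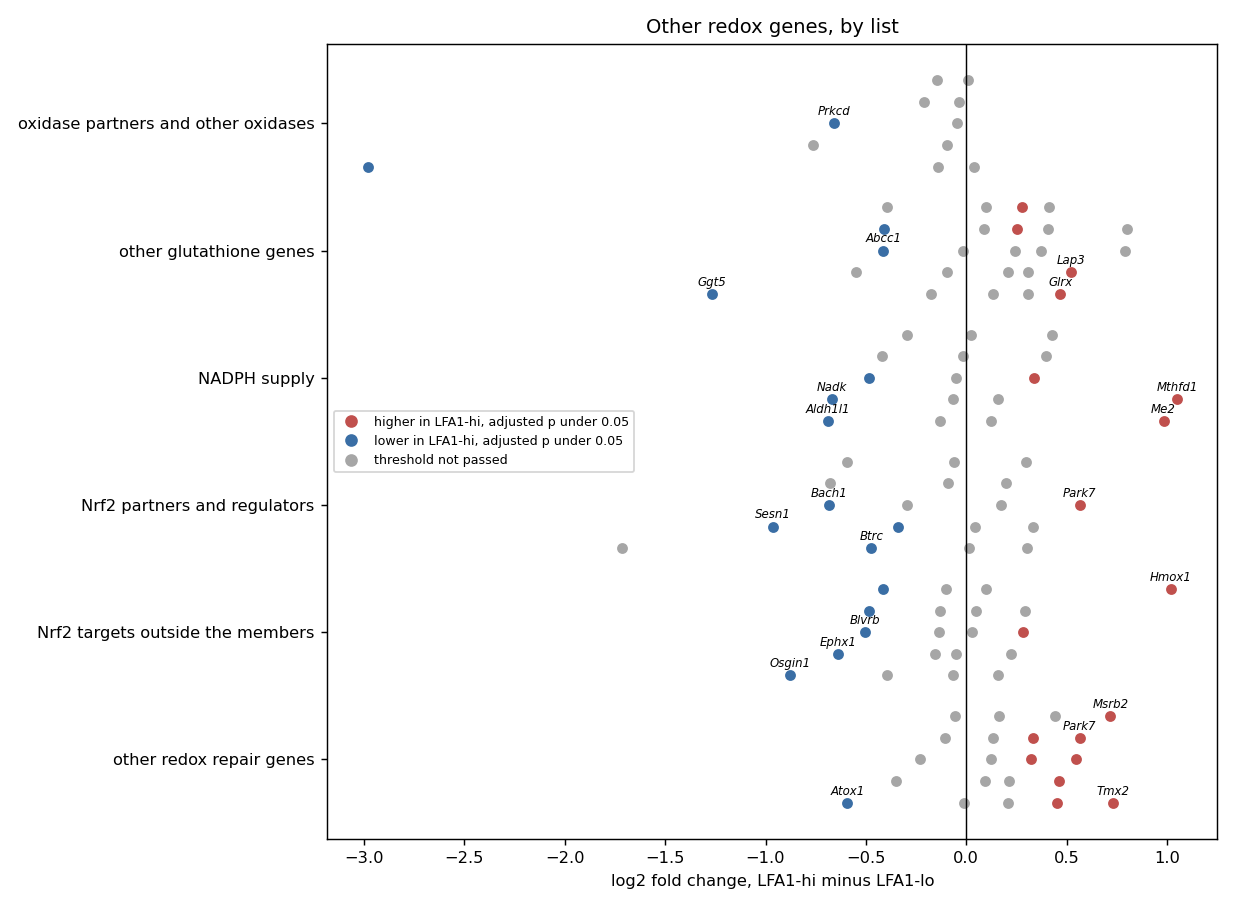
Log2 fold change of LFA1-hi minus LFA1-lo for the tested genes of 6 lists of redox genes outside the members, 1 point per gene, with small vertical offsets for legibility. Red and blue mark genes past an adjusted p of 0.05, and up to 4 of them with the largest changes are named. The unnamed blue point farthest to the left is Nox1. Both colours appear in 5 lists, and only the list of oxidase partners has no red point.

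Several antioxidant genes varied widely between LFA1-lo libraries, and of those named in this paragraph only Cat and Gstm1 passed. Prdx1, Srxn1, Txnrd1 and Gclc were highest in LFA1-lo replicate 2 and lowest in LFA1-lo replicate 3, and Txn1 had the same extremes. Prdx1 was at 6165 TPM in LFA1-lo replicate 2 and 2687 TPM in LFA1-lo replicate 3, with the LFA1-hi libraries between 2888 and 3857 TPM. Cat, Gstm1, Gstm5 and Txndc16 were instead lowest in LFA1-lo replicate 2. On the CPM scale 5 of 54 tested members (9.26%) were at least 1.5-fold higher in LFA1-lo replicate 2 than in replicate 3, and 10.3% of all tested genes were. Over the tested members the median coefficient of variation of CPM was 6.32% in LFA1-hi and 13.7% in LFA1-lo libraries.

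**Figure D5:**
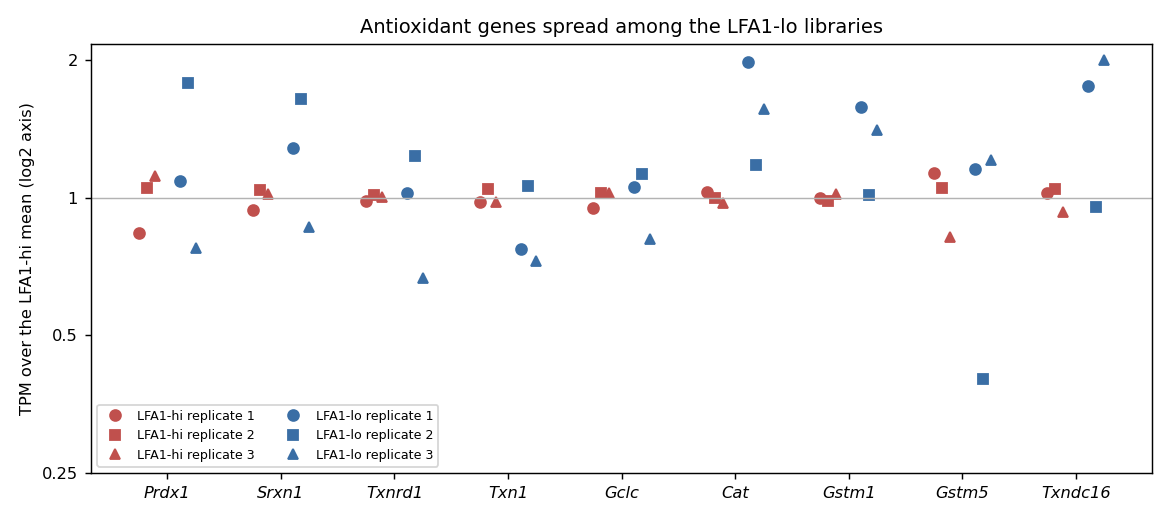
TPM of 9 antioxidant genes in each library, divided by the mean of the 3 LFA1-hi libraries, on a log2 axis. The 9 genes were chosen after their values were seen. The LFA1-hi libraries (red) stay near 1, while LFA1-lo replicate 2 (blue squares) lies high for Prdx1 and Srxn1 and low for Gstm5, apart from LFA1-lo replicates 1 and 3.

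Summed over genes, oxidase transcripts came to 1923, 1879 and 1933 TPM in LFA1-hi and 2368, 2423 and 2218 TPM in LFA1-lo libraries, with Cyba the main contributor. Antioxidant transcripts came to 9128, 9744 and 9957 TPM in LFA1-hi and 10694, 12643 and 9057 TPM in LFA1-lo libraries. The oxidase sums did not overlap and the antioxidant sums did. Without Prdx1 the antioxidant sums were 6101 to 6239.8 TPM in LFA1-hi and 6369.9 to 6933 TPM in LFA1-lo libraries. Their means were then 6153 TPM in LFA1-hi and 6594 TPM in LFA1-lo libraries. Both antioxidant sums include Txnip, whose product inhibits thioredoxin, with means of 307 TPM in LFA1-hi and 657 TPM in LFA1-lo libraries. The sums for glutathione synthesis and recycling were 383 to 394 TPM in LFA1-hi and 257 to 343 TPM in LFA1-lo libraries, the only role with higher sums in every LFA1-hi library. These sums describe the libraries and carry no test.

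The 95% interval of the fold lay within 1.5-fold in both directions for 26 of the 54 tested members, and for 41.4% of all tested genes. The 26 included Sod1, Gpx1, Txnrd1, Gpx4, Prdx2, Prdx5, Prdx6, Gclc, Keap1 and Cyba. For Prdx1, Srxn1, Nqo1 and 12 of the 14 tested transferases the interval reached past 1.5-fold on at least 1 side. Several members overlap another annotated gene, among them Txnip, Cybb, Ncf1, Gclm, Gsr, Gsta3, Txndc5, Txndc12 and Prdx1. Whether reads were counted by strand is not given in the sources used here, so reads of such pairs may be assigned to either gene.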

How the data were processed

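The deposited files hold RSEM gene output on RefSeq transcripts, 1 file per library. Per the submitters' processing notes, bcl2fastq, Trim Galore and RSEM were used with the build GRCm38; no versions, aligner or annotation release were found in the sources used here. Per the labels' protocols, ribosomal RNA was depleted enzymatically. Per the file headers, the authors deposited expected counts, the estimated reads or fragments per gene, not normalized, TPM values per effective length, and a mean transcript length per gene.

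Expected counts were rounded (5.53% to 6.06% of genes were not whole). The filterByExpr function left 11692 of 24411 genes, scaled by TMM (factors 0.956 to 1.034). Both groups shared 1 robust quasi-likelihood fit in edgeR (4.0.16; R 4.3.3). P-values were adjusted by Benjamini-Hochberg across the 11692 genes. Standard errors are approximate: they were worked back from each log2 fold change and its test statistic. The 95% intervals were built from these standard errors with the t distribution. The procedure was tested on simulated data in which both groups had the same dispersion. That test therefore does not cover the wider spread of the LFA1-lo libraries. Figures used Python 3.11.15 and matplotlib 3.10.9. Coordinates and promoter windows are RefSeq's on GRCm38.p6, counted from 1, and all 69 members matched RefSeq by accession.

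Members and lists were chosen with earlier results of these data known, and no list was tested as a set. Named in full, by rule, were the 14 listed members, members past the threshold with a log2 fold change of at least 0.5 in size and a mean of at least 1 TPM, and the most abundant member of each role. Of each list up to 4 genes past the threshold with the largest changes and a mean of at least 1 CPM were named. Members outside this rule were named after their values were seen. Alternatives were 3 other scalings, 2 other filters, unrounded counts, DESeq2 1.42.0, limma 3.58.1 (voom, and log2 of TPM + 0.1 or TPM + 1), a fit that is not robust, no ribosomal or small RNA genes, the replicate number as a block, and leaving out each library. Values of 1 gene in the list of oxidase partners are not reported here.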

Additional observations from a re-analysis of the deposited data

How the results depend on the processing

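Over 19 alternatives, 6 of the 15 members past the threshold passed in each (Nfe2l2, Gstm2, Gstp1, Gsr, Txnip and Ncf4), and none of the 15 changed direction. Of the 39 members that did not pass, 28 passed in none, and 19 changed sign in at least 1 alternative without passing there with the other sign. With library totals as the scale 1 oxidase gene was called, and the share of higher calls among all genes became 60.9%, against 50.8% (2294 higher and 1471 lower, against 1883 and 1822). Leaving out 1 library at a time gave 2288 to 5032 calls among all genes, 1 to 3 among the oxidase genes, 3 to 12 antioxidant genes higher and 2 to 6 lower. The cause of these shifts was not tested. Whether the replicate numbers pair the samples is not in the labels. Deviations of same-numbered libraries from their group means correlated at 0.037, 0.018 and −0.072 across genes. Not every library correlated best with its own number. With 3 libraries per group these correlations cannot settle the pairing. With the replicate number as a block 3253 genes were called, with 2 oxidase genes, 6 antioxidant genes higher and 6 lower. Members with few counts had wide intervals: the 95% interval of the fold was 0.107 to 0.928 for Gsto2, at 1 to 11 counts a library, and 0.782 to 6.29 for Gpx7, at 1 to 24 counts.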
